A study of Mus musculus with 15 samples.

Results

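The 10 genes described here belong to the secondary granules and the later stages of neutrophils: S100a8, S100a9, Fcnb, Mmp8, Mmp9, Ltf, Camp, Ngp, Lcn2 and Cebpe. They were found by symbol in the deposited tables of 55359 genes, where each symbol matched 1 gene. All 10 were among the 14548 genes that passed the filter on low counts, although S100a8, S100a9, Ltf and Ngp needed the heterozygous libraries to pass, since the WT empty libraries held 11, 28, 20 and 39 of their counts in all. The genes were selected on earlier expected counts of these same libraries, in which S100a8, Fcnb and Mmp8 had stood out between Het empty and WT empty, so every value against the WT empty libraries is given as a description that supports nothing. Results of the other libraries were known as well, and the values of the vectors are likewise no independent test.

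RNA was sequenced from mouse fetal liver hematopoietic progenitors immortalized with Hoxb8 and kept in medium with β-estradiol. Cells of all groups took up a retrovirus, were kept with it for 2 days and were sorted for GFP. Het R525H, Het G173R, Het DDX41 and Het empty are hi-Ddx41+/- cells with a vector for DDX41 R525H, DDX41 G173R or wild-type DDX41 or with the empty vector, and WT empty is hi-Ddx41+/+ cells with the empty vector. Each group has 3 libraries, numbered 1 to 3 in the titles. The labels name 1 line for each genotype, so a difference between the genotypes and a difference between 2 lines cannot be told apart. Nothing says that the libraries of a group came from separate cultures, and p-values measure the spread between these libraries, which may be technical.

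The groups follow the sample titles, but the names of 12 of the 15 files carry another code. The files of Het R525H carry the code that the titles use for the wild-type DDX41 vector, and those of Het G173R the code for the empty vector. Those of Het DDX41 and Het empty carry the letters B and A, which no label explains. The genotype is the same under both namings, but under the file names every comparison between vectors would be another contrast. Library totals lay between 22104066 and 49145873 expected counts. Ddx41, the gene that is heterozygous, had between 27.8 and 36.9 CPM (counts on TMM-scaled library totals) in the 12 heterozygous libraries and between 55.6 and 63.5 CPM in the 3 WT empty libraries. Of the progenitor markers, Cd34 averaged between 576 and 710 TPM (the authors' length-corrected measure) and Kit between 81.8 and 116 TPM in the 5 groups.

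Neutrophils fill their granules in sequence. Promyelocytes make the peroxidase and serine proteases of the primary granules, and myelocytes and metamyelocytes then make the lactoferrin, collagenase and cathelicidin of the secondary granules and the gelatinase of the tertiary ones. In mice the transcription factor C/EBPε, encoded by Cebpe, is needed for the secondary granule genes, while S100A8 and S100A9 are made in quantity by maturing cells and fill their cytosol as the calprotectin complex. Hoxb8 holds progenitors in an immature, dividing state, and such cells mature into granulocytes or macrophages once it is withdrawn.

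RefSeq promoters on GRCm38.p6 were at hand for 8 of the 10 genes, all but Mmp9 and Cebpe. The 250 bases before the start are shown for the pair that encodes calprotectin, for Fcnb and Mmp8, which took opposite directions between the lines, and for Ltf and Ngp, which were higher in the libraries numbered 3. S100a8 lies at chr3:90668821-90669070 on the plus strand and its RefSeq neighbour S100a9 at chr3:90695722-90695971 on the minus strand. Fcnb lies at chr2:28084879-28085128 on the minus strand and Mmp8 at chr9:7558179-7558428 on the plus strand. Ltf lies at chr9:111019042-111019291 on the plus strand and Ngp at chr9:110419558-110419807 on the plus strand. Each sequence runs 5′ to 3′ towards the gene, and capitals mark matches, on either strand, to the C/EBP motif TTGCNNAA or to the PU.1 motif GAGGAA, whose reverse complement reads TTCCTC.
S100a8: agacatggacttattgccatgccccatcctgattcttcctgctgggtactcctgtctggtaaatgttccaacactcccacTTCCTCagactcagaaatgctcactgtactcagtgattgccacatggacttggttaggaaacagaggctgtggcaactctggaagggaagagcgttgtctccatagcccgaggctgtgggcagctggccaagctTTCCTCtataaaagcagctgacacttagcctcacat
S100a9: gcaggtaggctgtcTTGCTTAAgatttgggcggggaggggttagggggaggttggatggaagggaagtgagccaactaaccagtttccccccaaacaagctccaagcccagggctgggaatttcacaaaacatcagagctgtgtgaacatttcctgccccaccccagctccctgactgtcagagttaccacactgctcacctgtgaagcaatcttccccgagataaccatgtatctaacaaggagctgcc
Fcnb: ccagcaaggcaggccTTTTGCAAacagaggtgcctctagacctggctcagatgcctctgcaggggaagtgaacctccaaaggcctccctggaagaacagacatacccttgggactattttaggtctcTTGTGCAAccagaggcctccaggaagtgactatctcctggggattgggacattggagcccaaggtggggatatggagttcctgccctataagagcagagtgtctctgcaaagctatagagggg
Mmp8: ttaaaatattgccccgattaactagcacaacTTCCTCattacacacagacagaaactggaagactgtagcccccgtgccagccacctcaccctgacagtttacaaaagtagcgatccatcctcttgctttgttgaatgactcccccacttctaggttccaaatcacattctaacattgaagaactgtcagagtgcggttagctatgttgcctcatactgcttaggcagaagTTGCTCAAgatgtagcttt
Ltf: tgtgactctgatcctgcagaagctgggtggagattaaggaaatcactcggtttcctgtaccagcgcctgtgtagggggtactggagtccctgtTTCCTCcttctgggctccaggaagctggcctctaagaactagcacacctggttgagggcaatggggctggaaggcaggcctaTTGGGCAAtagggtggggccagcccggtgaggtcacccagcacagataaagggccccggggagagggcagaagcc
Ngp: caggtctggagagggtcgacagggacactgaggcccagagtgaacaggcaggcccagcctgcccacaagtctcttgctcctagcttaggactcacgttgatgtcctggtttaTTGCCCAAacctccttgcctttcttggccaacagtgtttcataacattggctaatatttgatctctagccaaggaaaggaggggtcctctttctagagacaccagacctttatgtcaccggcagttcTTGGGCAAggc

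The C/EBP letters were found in 6 of the 8 promoters (S100a9, Fcnb, Mmp8, Ltf, Ngp and Lcn2) and in 9.56 percent of 32851 promoter windows of this length. The PU.1 letters were found in 4 of the 8 (S100a8, Mmp8, Ltf and Lcn2) and in 23.3 percent of the windows. No match of one motif overlapped a match of the other in these 8 promoters. Fcnb has a pair of C/EBP matches, which begin 235 and 123 bases before its start, and Ngp has matches 138 and 11 bases before. Mmp8 has its C/EBP match 19 bases and its PU.1 match 219 bases before the start, and S100a8 has PU.1 matches at 170 and 36 bases and no C/EBP match. A match is a run of letters and not a shown binding site, and nothing is drawn from the promoters that lack one.

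The 10 genes were expressed at low levels beside the primary granule genes of the same cells. On the length-corrected scale the mean over the 15 libraries was 30.5 TPM for Lcn2, 23.3 TPM for Mmp8, 6.97 TPM for Cebpe and 5.69 TPM for Fcnb. S100a9 and S100a8 averaged 3.90 and 3.42 TPM and Camp 1.97 TPM, while Ngp, Ltf and Mmp9 averaged 0.593, 0.350 and 0.211 TPM. The 10 genes summed to between 69.5 and 80.6 TPM in Het R525H, 55.9 and 70.2 in Het G173R, 61.6 and 64.4 in Het DDX41, 54.6 and 72.9 in Het empty and 112 and 124 TPM in WT empty. Of the sum in WT empty, Mmp8 alone held 79.6 ± 12.96 TPM (SD, n = 3). A list of 10 primary granule genes, which includes Mpo, Ctsg and Prtn3, summed to between 846 and 2299 TPM over all libraries. In a bulk sample, fewer cells of a type and less RNA per cell cannot be told apart.

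**Figure D1:**
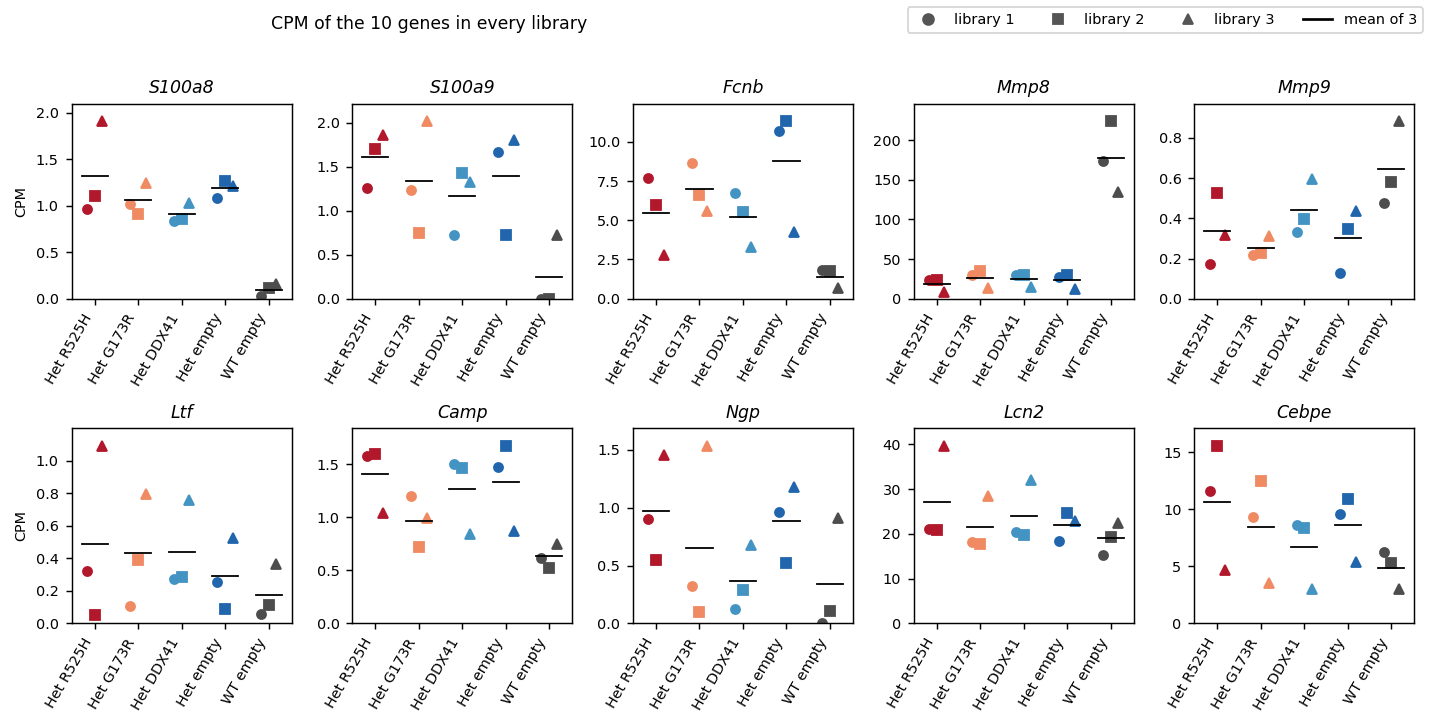
Level of each of the 10 genes in every library, in CPM on a linear axis from 0, with a panel for each gene. The shapes mark libraries 1, 2 and 3 of each group and the bars the mean of 3; S100a8 and Fcnb lie higher in all 12 heterozygous libraries than in the 3 WT empty libraries, and Mmp8 lies lower.

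S100a8 encodes a calcium-binding subunit of calprotectin. It had 0.962, 1.10 and 1.91 CPM in Het R525H, 1.02, 0.915 and 1.25 CPM in Het G173R, 0.833, 0.856 and 1.03 CPM in Het DDX41, 1.09, 1.27 and 1.21 CPM in Het empty and 0.0281, 0.111 and 0.156 CPM in WT empty. All 12 heterozygous libraries lay above all 3 WT empty libraries, whose values rest on 1, 4 and 6 counts. Het empty averaged 1.19 ± 0.092 CPM and WT empty 0.098 ± 0.065 CPM (SD, n = 3 each), a log2 fold change of 3.54 (SE 0.44).

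S100a9 encodes the partner subunit. It had 1.25, 1.70 and 1.86 CPM in Het R525H, 1.23, 0.752 and 2.02 CPM in Het G173R, 0.729, 1.43 and 1.33 CPM in Het DDX41, 1.66, 0.721 and 1.80 CPM in Het empty and 0, 0 and 0.727 CPM in WT empty. WT empty libraries 1 and 2 held no count and library 3 held 28, so 1 library set the WT empty level. Het empty library 2 lay just under that library, and the other 11 heterozygous libraries lay above it. The log2 fold change of Het empty over WT empty was 2.48 (SE 0.93), short of the threshold. Without WT empty library 3 the gene was called in all 4 heterozygous groups. Only WT empty libraries at 0 counts were then left, so nothing is read from these calls.

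Fcnb encodes ficolin B, a lectin of neutrophil and monocyte precursors that binds microbial sugars. It had 7.70, 5.96 and 2.77 CPM in Het R525H, 8.68, 6.63 and 5.62 CPM in Het G173R, 6.73, 5.55 and 3.29 CPM in Het DDX41, 10.7, 11.3 and 4.25 CPM in Het empty and 1.80, 1.75 and 0.675 CPM in WT empty. All 12 heterozygous libraries were again higher than the 3 WT empty libraries, and library 3 was the lowest of its group in all 5 groups. Het empty averaged 8.75 ± 3.91 CPM and WT empty 1.41 ± 0.63 CPM (SD, n = 3 each), a log2 fold change of 2.64 (SE 0.48). Between libraries of the same number the ratio of Het empty to WT empty was 5.94, 6.48 and 6.30 for numbers 1, 2 and 3, much closer together than the levels themselves.

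Mmp8 encodes neutrophil collagenase, a protease of the secondary granules, and took the opposite direction. It had 24.0, 24.1 and 9.03 CPM in Het R525H, 30.4, 34.8 and 13.97 CPM in Het G173R, 30.2, 29.3 and 14.2 CPM in Het DDX41, 27.4, 30.4 and 11.7 CPM in Het empty and 174, 224 and 135 CPM in WT empty. The highest of the 12 heterozygous libraries lay far under the lowest WT empty library. Het empty averaged 23.2 ± 10.04 CPM and WT empty 177 ± 44 CPM (SD, n = 3 each), so that Het empty held 13.1 percent of the WT empty level, a log2 fold change of -2.94 (SE 0.47). The ratio between libraries of the same number was 0.157, 0.136 and 0.0868 for numbers 1, 2 and 3.

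Mmp8 and Lcn2 changed places between the lines on the TPM scale. In WT empty, Mmp8 stood first of the 10 genes at 79.6 ± 12.96 TPM, with Lcn2 at 28.6 ± 6.4 TPM. In Het empty, Lcn2 stood first at 28.3 ± 2.3 TPM, Mmp8 followed at 9.22 ± 4.13 TPM, and Fcnb at 8.85 ± 4.28 TPM and Cebpe at 7.56 ± 2.64 TPM did not differ from Mmp8 beyond their spread (SD, n = 3 each).

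Mmp9 encodes gelatinase B of the tertiary granules and was close to absent. It had between 0.128 and 0.598 CPM in the 12 heterozygous libraries and 0.478, 0.582 and 0.883 CPM in WT empty. In 10 of the 12 the value lay below every WT empty library, and the other two were in Het R525H and Het DDX41. The log2 fold change of Het empty over WT empty was -1.09 (SE 0.49), which was not called.

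Of the antimicrobial proteins of the secondary granules, Lcn2 was the most abundant. It encodes lipocalin 2, which captures bacterial siderophores. It had 21.1, 20.8 and 39.6 CPM in Het R525H, 18.2, 17.7 and 28.5 CPM in Het G173R, 20.5, 19.8 and 32.0 CPM in Het DDX41, 18.4, 24.7 and 23.0 CPM in Het empty and 15.3, 19.3 and 22.4 CPM in WT empty. All groups overlapped. Het empty averaged 22.0 ± 3.3 CPM and WT empty 19.0 ± 3.6 CPM (SD, n = 3 each), and the log2 fold change of 0.21 had a 95 percent interval from -0.38 to 0.81.

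Camp encodes the cathelicidin precursor, whose peptide disrupts bacterial membranes. It had 1.58, 1.60 and 1.04 CPM in Het R525H, 1.198, 0.719 and 0.994 CPM in Het G173R, 1.5, 1.47 and 0.843 CPM in Het DDX41, 1.47, 1.67 and 0.868 CPM in Het empty and 0.619, 0.526 and 0.753 CPM in WT empty. All but 1 of the heterozygous libraries lay above the WT empty libraries, the exception being Het G173R library 2. Het empty averaged 1.34 ± 0.42 CPM and WT empty 0.633 ± 0.114 CPM (SD, n = 3 each), a log2 fold change of 1.08 (SE 0.34) that was not called.

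Ltf encodes lactoferrin, an iron-binding protein. It had 0.321, 0.0501 and 1.09 CPM in Het R525H, 0.109, 0.392 and 0.795 CPM in Het G173R, 0.271, 0.285 and 0.761 CPM in Het DDX41, 0.256, 0.0865 and 0.527 CPM in Het empty and 0.0562, 0.111 and 0.363 CPM in WT empty. Library 3 was the highest in each of the 5 groups. Ngp encodes neutrophilic granule protein, which is related to the cathelicidins. It had 0.904, 0.551 and 1.45 CPM in Het R525H, 0.327, 0.0980 and 1.53 CPM in Het G173R, 0.125, 0.285 and 0.680 CPM in Het DDX41, 0.960, 0.519 and 1.18 CPM in Het empty and 0, 0.111 and 0.909 CPM in WT empty. Its library 3 was also the highest in every group. Differences of Het empty from WT empty had wide errors, with log2 fold changes of 0.68 (SE 1.03) for Ltf and 1.35 (SE 1.06) for Ngp. Single libraries set them: without Het empty library 3 the Ltf value turned to -0.07, and without WT empty library 3 it was 1.75 for Ltf and 3.91 for Ngp, none of them called.

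Cebpe had 11.6, 15.6 and 4.72 CPM in Het R525H, 9.33, 12.5 and 3.55 CPM in Het G173R, 8.65, 8.36 and 3.04 CPM in Het DDX41, 9.63, 10.9 and 5.40 CPM in Het empty and 6.24, 5.35 and 2.99 CPM in WT empty. The heterozygous libraries numbered 1 and 2 lay above all WT empty libraries, and the 4 heterozygous libraries numbered 3 lay inside the WT empty range. The ratio of Het empty to WT empty between libraries of the same number was 1.54, 2.04 and 1.81 for numbers 1, 2 and 3. The log2 fold change of Het empty over WT empty was 0.83 (SE 0.53), which was not called.

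Between Het empty and WT empty, 3 of the 10 genes were called (edgeR's quasi-likelihood test, Benjamini-Hochberg adjustment over 14548 genes, adjusted p under 0.05), and 3.66 percent of all genes tested were. S100a8 and Fcnb were the 2 higher ones, against 1.9 percent called higher of all genes, and Mmp8 was the 1 lower, against 1.75 percent called lower. The median log2 fold change was 0.95 over the 10 genes and -0.001 over all genes tested. With the library number as a block, 4 genes were called higher, adding S100a9 and Cebpe. The same 3 genes were called against WT empty in Het R525H (6.68 percent of all genes tested), Het G173R (3.79 percent) and Het DDX41 (4.54 percent). These comparisons share the 3 WT empty libraries, and the choice of the genes used the first of them, so nothing is read from the shares.

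The log2 fold changes of the called genes over WT empty can be set side by side. Those of S100a8 were 3.68 (SE 0.44) in Het R525H, 3.37 (SE 0.44) in Het G173R, 3.15 (SE 0.43) in Het DDX41 and 3.54 in Het empty. Those of Fcnb were 1.97 (SE 0.47), 2.31 (SE 0.48), 1.89 (SE 0.47) and 2.64 in the same order of groups. Those of Mmp8 were -3.21 (SE 0.47), -2.75 (SE 0.46), -2.85 (SE 0.46) and -2.94. The Fcnb call was the least steady of the 3. In Het R525H it was lost in 4 of 6 fits that left out 1 library (WT empty 2 or 3, or Het R525H 1 or 2; adjusted p up to 0.103 in edgeR's test). In Het G173R it was lost in 2 of 6 (without WT empty 3 or Het G173R 1; up to 0.0575). In Het DDX41 it was lost in 5 of 6, all but the fit without Het DDX41 library 3 (up to 0.141), and in Het empty in 0 of 6. S100a8 and Mmp8 kept their calls in all these fits. Over all genes tested, 3.44 percent had all 12 heterozygous libraries above the 3 WT empty ones, as S100a8 and Fcnb did, and 3.92 percent had all 12 below, as Mmp8 did.

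**Figure D2:**
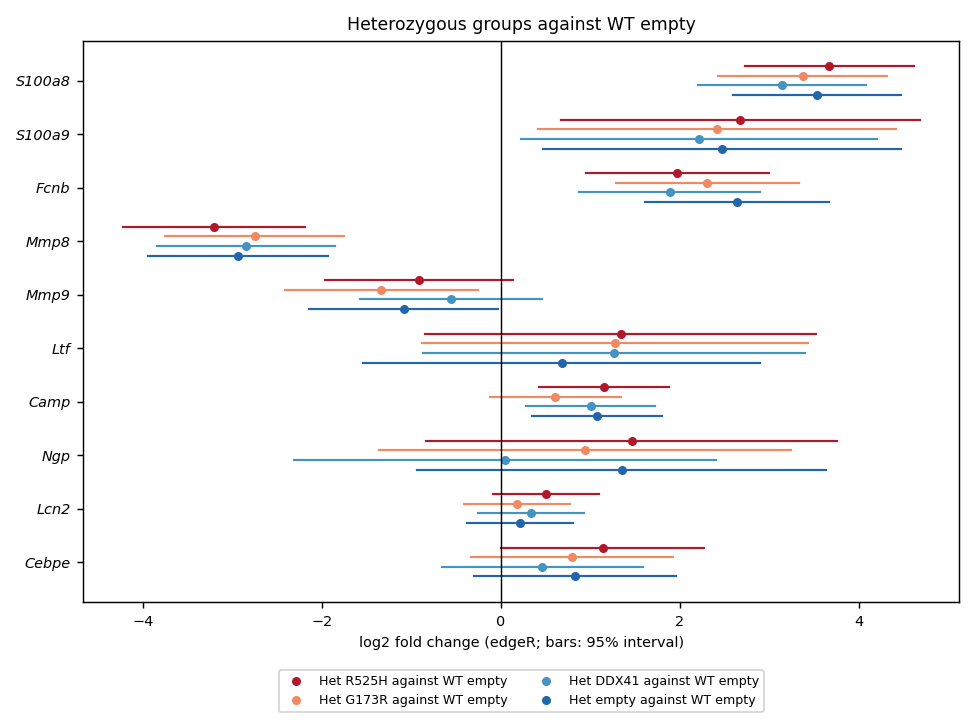
Log2 fold change over WT empty of the 10 genes in the 4 heterozygous groups, with bars for the 95 percent interval of the edgeR fit. S100a8 and Fcnb lie above 0 and Mmp8 below 0 in all 4 groups, which share the same 3 WT empty libraries; the intervals are not adjusted for the number of genes, and the other 7 genes were not called.

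The DDX41 vectors were compared with the empty vector within the heterozygous line, with the groups as the titles name them. None of the 10 genes was called in any of these 3 comparisons by edgeR or by DESeq2, and 0 had an unadjusted p under 0.05. Over all genes tested, edgeR called 0.0137 percent in Het R525H, 0 percent in Het G173R and 0 percent in Het DDX41 against Het empty. The 3 comparisons share the Het empty libraries. Ddx41 had 32.7, 34.6 and 29.05 CPM in Het R525H and 35.2, 36.9 and 27.8 CPM in Het G173R. It had 34.5, 35.3 and 29.55 CPM in Het DDX41 and 29.4, 33.0 and 28.65 CPM in Het empty. How much DDX41 the vectors gave was not tested, and these values do not show it.

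The log2 fold changes over Het empty spanned -0.66 to 0.66 in Het R525H, -0.46 to 0.60 in Het G173R and -1.30 to 0.58 in Het DDX41. Leaving out 1 library turned the sign of 9, 7 and 4 of the 10 values in that order and changed no call. For Lcn2, the best-measured gene, the 95 percent intervals ran from -0.30 to 0.89 in Het R525H, from -0.63 to 0.56 in Het G173R and from -0.46 to 0.72 in Het DDX41. For Mmp8 they ran from -1.23 to 0.69, from -0.77 to 1.14 and from -0.86 to 1.04 in the same order, while Het empty lay at -2.94 from WT empty. For S100a8 they ran from -0.62 to 0.90, from -0.92 to 0.60 and from -1.15 to 0.37. Fcnb had log2 fold changes of -0.66 (interval -1.61 to 0.28), -0.33 (-1.27 to 0.62) and -0.75 (-1.70 to 0.20) in that order. All these intervals come from a fit without the library number, so they hold the shift of the libraries numbered 3. At each number Fcnb lay lower in Het R525H and in Het DDX41 than in Het empty. In Het G173R it lay higher at number 3, with 5.62 CPM against 4.25 CPM. With the library number as a block, none of the 10 genes was called against Het empty.

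One gene, in 1 of the 3 comparisons, had libraries that did not overlap with Het empty, where 11.6 percent of all genes tested did not overlap in Het R525H, 2.92 percent in Het G173R and 7.25 percent in Het DDX41. S100a8 had 0.907 ± 0.109 CPM in Het DDX41 and 1.19 ± 0.092 CPM in Het empty (SD, n = 3 each), a log2 fold change of -0.39 (SE 0.35) that was not called. The intervals of Ngp were the widest, from -2.07 to 2.29 in Het R525H, from -2.62 to 1.79 in Het G173R and from -3.57 to 0.96 in Het DDX41. A several-fold change in either direction lay inside the intervals of Het R525H and Het G173R, and a several-fold fall inside that of Het DDX41.

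**Figure D3:**
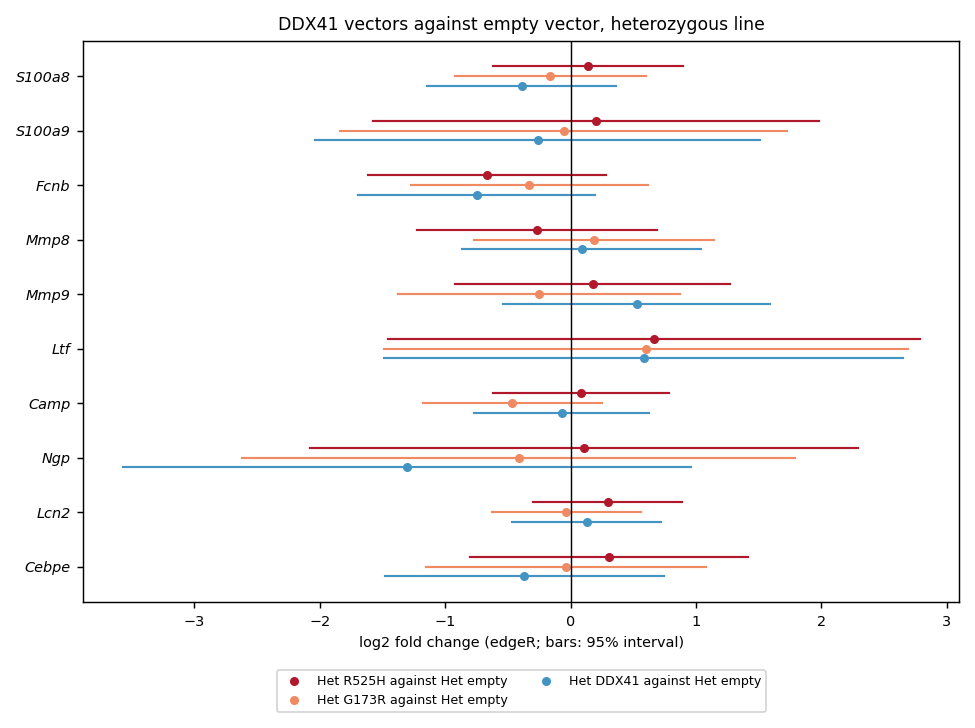
Log2 fold change of the 10 genes for R525H, G173R and wild-type DDX41 over Het empty, named by the sample titles, with bars for the 95 percent interval of the edgeR fit. Every interval includes 0; the narrowest belong to Lcn2 and the widest to Ngp.

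Between the DDX41 vectors, 0 of the 10 genes were called by edgeR or DESeq2 and 0 had an unadjusted p under 0.05. Over all genes tested, edgeR called 0.0825 percent for Het R525H against Het G173R, 0 percent for Het R525H against Het DDX41 and 0 percent for Het G173R against Het DDX41. Log2 fold changes spanned -0.45 to 0.55 for R525H over G173R. They spanned -0.36 to 1.41 for R525H over DDX41 and -0.78 to 0.89 for G173R over DDX41. Cebpe was 0.67 higher on the log2 scale in Het R525H than in Het DDX41, with an interval from -0.44 to 1.78. That interval comes from the fit without the library number and holds the shift of the libraries numbered 3. At each number Het R525H was the higher of the pair, and with the number as a block Cebpe was not called. Mmp9 was the 1 gene whose libraries did not overlap, at 0.253 ± 0.052 CPM in Het G173R and 0.442 ± 0.139 CPM in Het DDX41 (SD, n = 3 each). Groups of this pair did not overlap for 6.23 percent of all genes tested, against 11.1 percent for Het R525H and Het G173R and 10.7 percent for Het R525H and Het DDX41, where 0 of the 10 genes did not overlap.

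The libraries numbered 3 stood apart from those numbered 1 and 2 in every group. The labels do not say what the number marks, and the comparison had been seen in earlier results, so it too is a description. Of the 10 genes, 6 were called, 3 higher and 3 lower, and 46.1 percent of all genes tested were called, 21.1 percent higher and 25 percent lower. Ltf was higher by 1.86 (SE 0.38), Ngp by 1.90 (SE 0.44) and Lcn2 by 0.56 (SE 0.10) on the log2 scale. Cebpe had a log2 difference of -1.29 (SE 0.12), Mmp8 of -1.06 (SE 0.10) and Fcnb of -1.02 (SE 0.14). All 6 calls held in each of 15 fits without 1 library.

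In the libraries numbered 3 the 10 genes went in both directions, as all genes tested did, so nothing is read from this about them. Fcnb, Mmp8 and Cebpe had library 3 below both others in 5 of 5 groups, which held for 14.9 percent of all genes tested. Ltf and Ngp had it above both others in 5 of 5 groups, which held for 12.2 percent, and S100a8, S100a9, Mmp9 and Lcn2 had it above in 4 of 5. Camp had no common position, with library 3 below both others in 3 groups, between them in 1 and above in 1. Libraries numbered 2 against 1 gave 0 calls among the 10 genes by edgeR or DESeq2 and 0 unadjusted p under 0.05; over all genes tested edgeR called 0 percent, DESeq2 called 24 genes, and edgeR with no filter on low counts called 147.

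**Figure D4:**
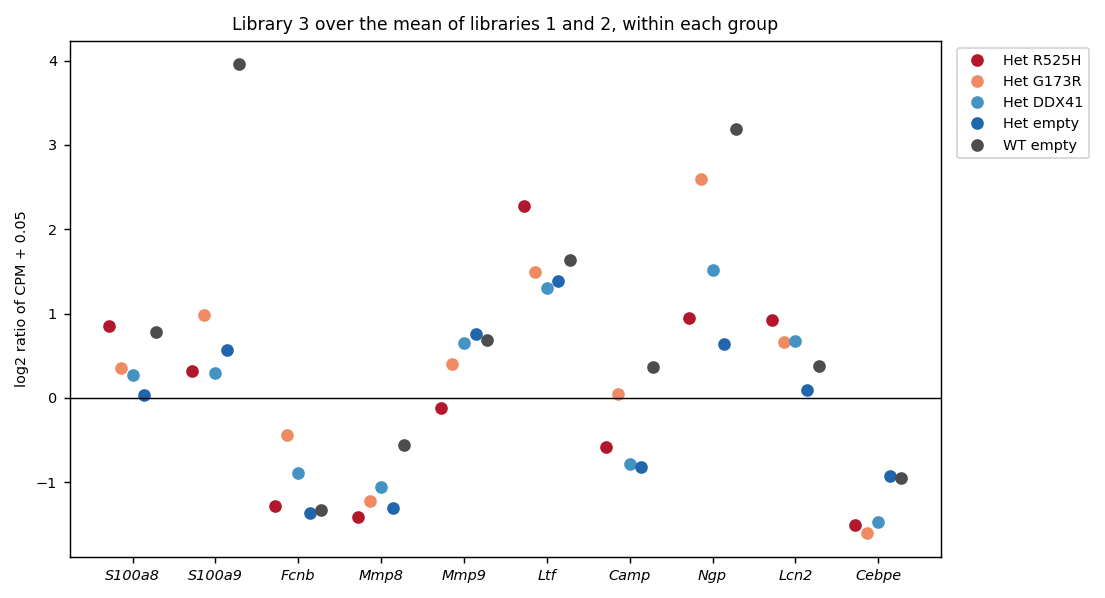
Log2 ratio of library 3 to the mean of libraries 1 and 2 within each group, on CPM + 0.05, with 1 point for each group and gene. Points of Fcnb, Mmp8 and Cebpe lie below 0 in all 5 groups and those of Ltf and Ngp above 0 in all 5; the high WT empty points of S100a9 and Ngp rest on libraries with 0 or few counts.

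The other marker lists are set beside the 46.1 percent of all genes called between libraries 3 and the rest. All 9 tested of 10 primary granule genes were called lower in libraries 3, with a median log2 difference of -0.81; Mpo, the myeloperoxidase gene, stood at -1.12 (SE 0.08), Ctsg at -0.84 (SE 0.11) and Prtn3, proteinase 3, at -0.70 (SE 0.11). Of 19 tested further late neutrophil genes 3 were called higher and 9 lower, and of 11 tested granulocyte transcription factors 2 were called higher and 6 lower. Of 8 tested erythroid and megakaryocyte markers 4 were called higher and 0 lower, with 7 values above 0. Of all genes tested, 21.1 percent were called higher and 25 percent lower. Of 8 lymphoid markers 6 were called higher and 1 lower, of 8 monocyte markers 3 and 3, of 7 mast cell and basophil markers 1 and 3, and of 9 progenitor markers 2 and 5. Of 4 eosinophil markers 0 were called by edgeR or DESeq2 and 0 had an unadjusted p under 0.05, and of 3 stroma and endothelium markers 2 were called higher. Their part in the values of the 10 genes was not tested.

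After centring each gene on its group means, some pairs of the 10 genes were correlated over the 15 libraries, which share the shift of the libraries numbered 3. Whether the genes form sets was not tested. Mmp8 went with Cebpe (Pearson r = 0.944) and with Fcnb (r = 0.864), S100a9 went with Ngp (r = 0.837), and Lcn2 ran opposite to Cebpe (r = -0.892). Across all 15 libraries without centring, Fcnb and Mmp8 had r = -0.557, and the line difference has opposite signs in them. Among 9130 genes of at least 5 CPM, those most like each gene within the groups were Rasgrp2 for Cebpe (r = 0.997), BC035044 for Mmp8 (r = 0.991), Serinc1 for Lcn2 (r = 0.986) and Zkscan3 for Fcnb (r = 0.982). Retsat was most like S100a8 (r = 0.972), Lamc1 most like Ngp (r = 0.936) and Zfp385a most like Ltf (r = 0.930). For Enc1 with S100a9 (r = 0.914), Mtpap with Camp (r = 0.910) and Gadd45b with Mmp9 (r = 0.901) the likeness was lowest.

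The other genes of the neutrophil programme were read from lists chosen for their roles. Of all genes tested, edgeR called 1.9 percent higher and 1.75 percent lower between Het empty and WT empty. Between Het empty and WT empty, 0 of 9 tested primary granule genes were called by edgeR, although DESeq2 called 1 higher and 4 had an unadjusted p under 0.05 in edgeR's test, with a median log2 fold change of 0.58. Of 30 further late neutrophil genes 19 could be tested, and 2 were called higher and 0 lower with a median of 0.14. These 2, named after their values were seen, were Stfa1, a stefin A protease inhibitor (log2 fold change 2.35, SE 0.37), and Itgam, the CD11b integrin chain (1.15, SE 0.18). The sum of the 30 listed genes went the other way, with between 1668 and 2236 TPM in Het empty and 2879 and 3116 TPM in WT empty. In CPM this sum lay between 1934 and 2390 in Het empty and between 2462 and 2861 in WT empty. Slpi, which had the highest mean TPM of this list, had a log2 fold change of -0.57 (SE 0.22) that was not called. Of the 19 tested values 12 lay above 0 and 7 below. Of 11 tested granulocyte transcription factors 0 were called by edgeR or DESeq2 and 0 had an unadjusted p under 0.05. In the other heterozygous groups against WT empty, edgeR's calls among the 19 late neutrophil genes differed. In Het DDX41 2 were called higher and 2 lower, with Slpi among the lower ones. In Het G173R 2 were called higher and 0 lower, and in Het R525H 3 and 0. The shares of all genes tested, called in either direction, were 4.54 percent in Het DDX41, 3.79 percent in Het G173R and 6.68 percent in Het R525H.

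Defining markers of mature neutrophils were at or near 0. Over all 15 libraries together Mmp25 had 0 counts, Fpr1 and Fpr2 had 1 each, Ly6g had 3, Cybb had 9 and Chil3 had 28. For comparison, S100a8 had 117 counts and Mmp8 2287 counts in the 3 Het empty libraries.

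Markers of other blood cells are set beside the 3.66 percent of all genes called between Het empty and WT empty. Of 8 tested monocyte markers 2 were called higher and 2 lower in Het empty than in WT empty, and the 12 listed genes summed to between 68.6 and 78.2 TPM in Het empty and 85.3 and 96.7 TPM in WT empty. Of 7 tested mast cell and basophil markers 0 were called higher and 4 lower, and the 9 listed genes summed to between 78.3 and 90.1 TPM in Het empty and 129 and 158 TPM in WT empty. Of 4 tested eosinophil markers 1 was called lower, and the 7 listed genes summed to between 19.1 and 22.3 TPM in Het empty and 45.7 and 50.02 TPM in WT empty. Of 8 erythroid and megakaryocyte markers 1 was called lower, with all 8 values below 0, and of 8 lymphoid markers 2 were called lower. Of 9 progenitor markers 1 was called lower, with 8 values below 0, and of 3 stroma and endothelium markers 0 were called by edgeR or DESeq2, with 1 unadjusted p under 0.05. In CPM the monocyte list summed to between 230 and 250 in Het empty and 300 and 324 in WT empty. The mast cell and basophil list summed to between 172 and 188 CPM and between 211 and 292.5 CPM in that order. The eosinophil list summed to between 51.2 and 57.1 CPM and between 97.6 and 112 CPM. The part of these cells in the line differences of Mmp8, Fcnb and S100a8 was not tested.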

How the data were processed

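RNA of 15 libraries was sequenced after ribosomal RNA reduction with a stranded total RNA kit, per the labels' protocols. The authors deposited 1 table per library made with RSEM, per the submitters' processing notes; version, aligner, build and strand setting: not given in the sources used here. Each holds expected counts, which are estimates that share out reads matching several genes and are not normalized, and TPM and FPKM, which the authors normalized for length and total, per the file headers. FPKM was not used. TPM rests on the effective length RSEM estimates in each library, so CPM and TPM can rank libraries differently for a low gene such as Ltf. Beside CPM, TPM also ran lower in Het empty than in WT empty for abundant genes. Cd34 averaged 1556 CPM in Het empty and 1614 CPM in WT empty, but 598 and 710 TPM. Myb averaged 620 and 627 CPM, but 180 and 210 TPM. Sums in TPM compare the lines with this shift in them, and its cause was not tested.

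Expected counts, rounded, were fitted with edgeR 4.0.16 (R 4.3.3): filterByExpr by group left 14548 genes with 99.95 to 99.97 percent of the counts, TMM factors were 0.969 to 1.06, and a single quasi-likelihood fit by group covered all libraries. Benjamini-Hochberg adjustment ran over all genes tested, and a call needs an adjusted p under 0.05. Each SE divides the log2 value by the root of its F statistic, and 95 percent intervals use the model's degrees of freedom. CPM uses TMM totals. The contrast of library numbers added the number to the model. The fit was tested on simulated counts.

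The genes and lists were chosen with earlier results of these data known. All 10 genes are named; of other lists, the 3 members with the highest mean TPM may be named, and for each gene its most similar genes by Pearson r of log2 CPM deviations from the group means. Mature neutrophil markers near 0 and the called Stfa1 and Itgam were named after their values were seen. Alternatives were DESeq2 1.42.0, its size factors, no filter, the library number as a block, libraries 1 and 2 alone and leaving out each library.

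Same-numbered libraries deviated together (all 3 correlations over genes above 0.1) for Het empty against WT empty (0.358 to 0.490), Het G173R against Het empty (0.181 to 0.399), Het R525H against Het G173R (0.287 to 0.643) and against Het DDX41 (0.321 to 0.635), and Het G173R against Het DDX41 (0.280 to 0.707); the pairing comes from these correlations, not from the labels. For the other comparisons at least 1 was lower. For Het G173R against Het DDX41 only 3 of 6 libraries correlated best with their own number, so that pairing is uncertain. In the rest of the pairs named, 6 of 6 did.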

Additional observations from a re-analysis of the deposited data

How the results depend on the processing

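Under all alternatives Mmp8 was the 1 gene called lower against WT empty, and S100a8, Fcnb and Mmp8 kept their directions. Of the 60 uncalled values in the 6 comparisons without WT empty, 36 turned their sign when 1 library was left out. Counts of genes called higher against WT empty (2 in each group) moved. With the replicate block they were 4 for Het empty (adjusted p 0.0335 for S100a9 and 0.00525 for Cebpe in edgeR's test), 4 for Het G173R, 3 for Het DDX41 and 6 for Het R525H. For these 3 vector groups the pairing with WT empty by number is uncertain, since at least 1 correlation was under 0.1. The lowest were 0.0962 for Het G173R, -0.0805 for Het DDX41 and 0.0228 for Het R525H. In the same order, 5, 3 and 5 of 6 libraries correlated best with their own number. Counts of genes called higher also moved with libraries 1 and 2 alone. They were 6 for Het R525H, 4 for Het G173R, 4 for Het DDX41 and 5 for Het empty. The S100a9 value there rests on WT empty libraries at 0 counts. Calls over all genes tested, in either direction, rose in this setting as well. They were 1904 for Het R525H, 1133 for Het G173R, 1307 for Het DDX41 and 1068 for Het empty. With all libraries they were 972, 551, 661 and 532 in that order. With DESeq2 the count of the described genes called higher was 4 for Het R525H, adding Camp and S100a9. Without 1 library these counts ranged from 1 to 2 in Het R525H, Het G173R and Het DDX41 and from 2 to 3 in Het empty. The causes were not tested. DESeq2's size factors shifted log2 fold changes by under 0.01.

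Over all genes tested, the calls by edgeR, with the block and by DESeq2 were 972, 2522 and 1438 for Het R525H against WT empty, 551, 1453 and 841 for Het G173R, 661, 1887 and 1053 for Het DDX41 and 532, 1352 and 804 for Het empty. Against Het empty they were 2, 63 and 60 for R525H, and between R525H and G173R 12, 141 and 119; the block and DESeq2 called 59 and 35 genes for R525H against DDX41 where edgeR called 0. The block called no member between the vectors or against Het empty. Counts of 0 to 35 in single WT empty libraries limit S100a8, S100a9, Ltf and Ngp.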
